A study of Homo sapiens with 4 samples.

Results

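A set of 10 surface molecules through which a B cell speaks to T cells, natural killer cells and macrophages were read in 2 lines of diffuse large B-cell lymphoma (DLBCL). The genes were CD274 (PD-L1), PDCD1LG2 (PD-L2), CD80, CD86, ICOSLG, CD70, CD40, TNFRSF14 (HVEM), CD47 and CD58, and they were found as the rows of the gene table that carry exactly these symbols. All 10 were listed among the 41507 genes of that table, and 8 of them reached a mean of 0.1 RPKM over the 4 samples, as did 11623 genes in all. The exceptions were CD274, whose mean was 0.0758 RPKM, and PDCD1LG2, which was at 0 in every library.

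A T cell needs a second signal beside its antigen receptor, and CD80 and CD86 on the antigen-presenting cell give it through CD28 or take it away through CTLA4. CD274 and PDCD1LG2 bind PD-1 and dampen the T cell, TNFRSF14 binds BTLA and CD160 on lymphocytes as well as the cytokines LTA and LIGHT, and CD47 binds SIRPA on macrophages and acts as a signal against phagocytosis. In B-cell lymphoma, loss of CD58 or TNFRSF14 and gain of the 9p24 region that holds CD274, PDCD1LG2 and JAK2 are known genetic lesions, and JQ1 displaces BET proteins, readers of acetylated histones, from chromatin.

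Both lines, SU-DHL-5 and Toledo, are established cell lines of DLBCL. The 4 groups were SU-DHL-5 with DMSO as the vehicle, SU-DHL-5 with JQ1 at 1 µM, Toledo with DMSO and Toledo with JQ1 at 1 µM. By the labels all were treated for 6 h, a time that differs from the one in the figure legend of the study. Each condition had 1 sample, sequenced as 2 libraries, so n = 1 for each and a difference within a line could not be tested. A fit over both lines together was not run, and no p-value is given. What separates the 2 libraries of a sample is not given in the sources used here, and their SD covers only that difference.

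RPKM is the number of reads of a gene per kilobase of its exons, scaled to the mapped reads of its library. Whole reads could be recovered from these values, and the 8 libraries had 14617583 to 17679831 mapped reads. A log2 ratio below is that of the sample means after 0.1 RPKM was added to each, which understates the change of genes near 0. A gene was counted as 2-fold lower or higher when this ratio reached 1 in size. Where an interval is given, it is the exact 95% interval of the ratio of reads scaled to the mapped reads, and it covers counting error only. It does not cover the spread between libraries. Among genes with a mean of at least 1 RPKM, the 95th percentile of the gap between the 2 libraries of a sample was 0.30 to 0.47 on the log2 scale. An interval that leaves out 0 therefore does not by itself show a difference beyond that spread. All 7 B cell markers examined (among them MS4A1, CD79A and PAX5) had at least 1 RPKM on average. In SU-DHL-5 the sum of the 7 went from between 877 and 986 RPKM with DMSO to between 637 and 645 RPKM with JQ1. Toledo went from between 879 and 935 to between 610 and 627 RPKM. CD79A and CD79B made up most of these sums. In SU-DHL-5 the JQ1 libraries lay below those with DMSO for 5 of the 7 (37.5% of all measured genes) and overlapped them for CD79B and EBF1. In Toledo they lay below for 6 (43.6%), and PAX5 overlapped. Since the samples are bulk RNA, fewer cells with a transcript and less of it per cell cannot be told apart.

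Promoter sequences are shown for CD80 and TNFRSF14, which were at least 2-fold lower with JQ1 in both lines. They are also shown for the 2 starts of CD86, between which the reads given to its transcripts shifted in SU-DHL-5. They are the 250 bases before the RefSeq transcription start on GRCh38.p14, written in the direction of the gene, and 7 of the 10 genes had such a window in the table used (PDCD1LG2, CD40 and CD70 had none). Capitals mark matches on either strand to the kappa-B consensus of NF-kB factors, where overlapping matches run together.
CD80, chr3:119559615-119559864, minus strand: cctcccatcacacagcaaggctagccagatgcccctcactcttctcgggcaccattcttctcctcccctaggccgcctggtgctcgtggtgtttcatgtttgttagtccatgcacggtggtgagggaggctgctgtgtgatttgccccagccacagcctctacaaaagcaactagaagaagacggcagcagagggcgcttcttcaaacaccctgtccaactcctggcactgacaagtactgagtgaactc
TNFRSF14, chr1:2556121-2556370, plus strand: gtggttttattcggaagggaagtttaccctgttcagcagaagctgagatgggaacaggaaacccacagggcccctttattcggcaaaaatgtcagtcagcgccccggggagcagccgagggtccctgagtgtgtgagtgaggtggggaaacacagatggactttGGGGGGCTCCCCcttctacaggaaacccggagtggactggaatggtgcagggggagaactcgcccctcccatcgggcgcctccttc
CD86, upstream start, chr3:122055112-122055361, plus strand: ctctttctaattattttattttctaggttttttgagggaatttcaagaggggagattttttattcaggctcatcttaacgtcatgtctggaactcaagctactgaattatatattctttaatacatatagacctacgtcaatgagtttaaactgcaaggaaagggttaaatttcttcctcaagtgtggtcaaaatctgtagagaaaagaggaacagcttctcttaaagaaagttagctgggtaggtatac
CD86, downstream start, chr3:122077534-122077783, plus strand: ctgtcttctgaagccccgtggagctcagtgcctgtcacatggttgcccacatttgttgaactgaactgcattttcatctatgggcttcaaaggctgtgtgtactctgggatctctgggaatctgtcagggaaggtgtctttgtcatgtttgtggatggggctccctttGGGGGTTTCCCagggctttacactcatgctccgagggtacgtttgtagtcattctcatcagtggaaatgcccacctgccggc

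In windows that also include the first 50 transcribed bases, a kappa-B match was found in 11.3% of the 35116 promoters of the table, and among these genes in TNFRSF14 (3 overlapping matches) and at the downstream start of CD86 (2 overlapping matches). The GC box (GGGCGG on either strand), found in 45.0% of all promoters, occurred 6 times in CD47, 4 times in ICOSLG, 3 times in CD58 and 1 time in CD274, and in none of the 4 windows printed above. The E-box CACGTG (7.26% of promoters), the TATA box TATAAA (11.5%) and CCAAT (34.6%) had no match in any of the 8 windows. A match describes the letters of the window and was not linked to binding of any factor.

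**Figure D1:**
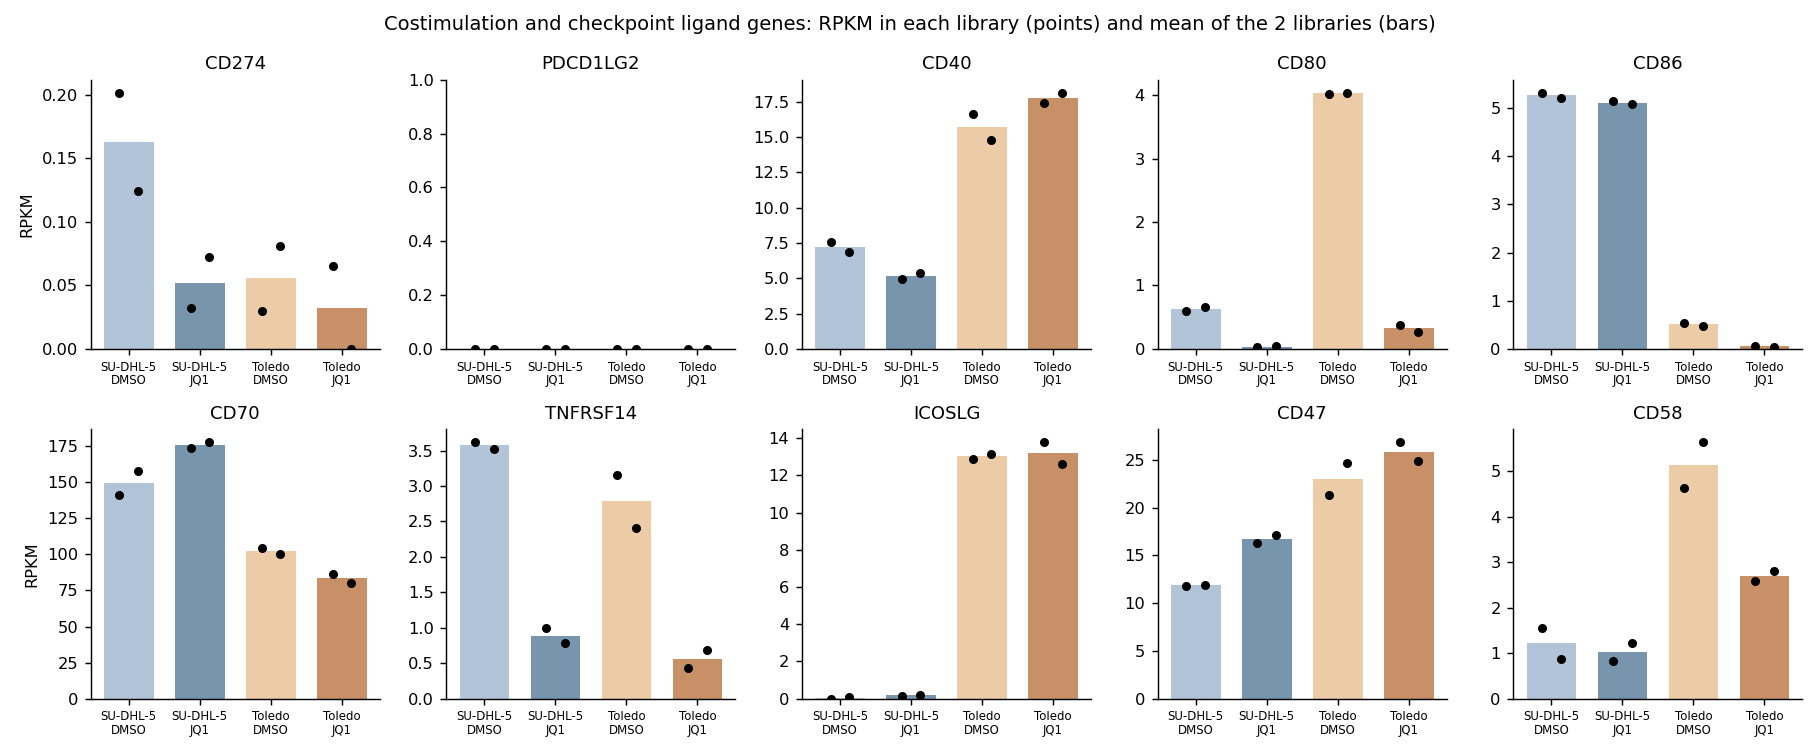
RPKM of the 10 ligand genes in the 4 samples, with a linear axis for each gene; points are the 2 libraries of a sample and bars their mean. CD80 and TNFRSF14 were low in the JQ1 libraries of both lines, CD86 was low in Toledo, ICOSLG was near 0 in SU-DHL-5, and PDCD1LG2 was at 0 throughout.

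Before treatment, CD70 stood far above the rest in both lines, CD274 had at most 0.202 RPKM and PDCD1LG2 was at 0. In SU-DHL-5 with DMSO, the order from high to low was CD70 (150 RPKM), CD47 (11.9), CD40 (7.23), CD86 (5.27), TNFRSF14 (3.57), CD58 (1.21), CD80 (0.631), CD274 (0.163), ICOSLG (0.0502) and PDCD1LG2 (0). The 2 libraries of neighbours in this order did not overlap, except for ICOSLG and PDCD1LG2, which were both at 0 in the first library. In Toledo with DMSO, the order was CD70 (102 RPKM), CD47 (23.0), CD40 (15.7), ICOSLG (13.0), CD58 (5.13), CD80 (4.03), TNFRSF14 (2.79), CD86 (0.509), CD274 (0.0555) and PDCD1LG2 (0), and no neighbours overlapped. PDCD1LG2 had 0 of the 32683765 mapped reads of SU-DHL-5 with DMSO, and a count of 0 allows up to 3 reads in each sample.

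Between the untreated lines, 4 of the 8 measured genes (CD40, CD80, ICOSLG and CD58) were at least 2-fold higher in Toledo, where 18.9% of all measured genes were, and CD86 alone was at least 2-fold lower, where 14.9% of genes were. The median log2 ratio of the 8 genes, Toledo over SU-DHL-5, was 1.03, beside 0.03 over all measured genes. ICOSLG (0.0502 RPKM in SU-DHL-5, 13.0 RPKM in Toledo) reached the minimum of 0.1 RPKM mainly through its level in Toledo. Its part in this count and median is therefore not independent of that minimum. CD80 and CD86, which share their receptors, stood in opposite order in the 2 lines. CD80 (chr3:119524293-119559634) had 0.601 and 0.662 RPKM in SU-DHL-5 and 4.02 and 4.04 RPKM in Toledo, a log2 ratio of 2.50. CD86 (chr3:122055362-122121143) had 5.32 and 5.21 RPKM in SU-DHL-5 and 0.546 and 0.471 RPKM in Toledo, a log2 ratio of −3.14. In SU-DHL-5 the CD86 level was thus above that of CD80 in both libraries, and in Toledo the CD80 level was above that of CD86 in both. The ratios of ICOSLG (6.45, uncertain because of a near-identical copy), CD58 (2.0) and CD40 (1.11) were also above 1. That of CD47 was 0.95, and it passed 2-fold in the second libraries alone (1.05), while CD70 had −0.55 and TNFRSF14 −0.35.

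With JQ1, no measured gene of the 10 was at least 2-fold higher in either line, beside 1.98% of all measured genes for SU-DHL-5 and 2.19% for Toledo. In SU-DHL-5, CD80 and TNFRSF14, 2 of the 8, were at least 2-fold lower, beside 7.51% of all measured genes. In Toledo, CD80, CD86 and TNFRSF14, 3 of the 8, were at least 2-fold lower, beside 9.94% of all measured genes. Over the 8 genes, SU-DHL-5 had a median log2 ratio of −0.13 beside 0 for all measured genes, a median that was −0.33 in the first libraries alone and 0.07 in the second, and Toledo a median of −0.60 beside −0.09.

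**Figure D2:**
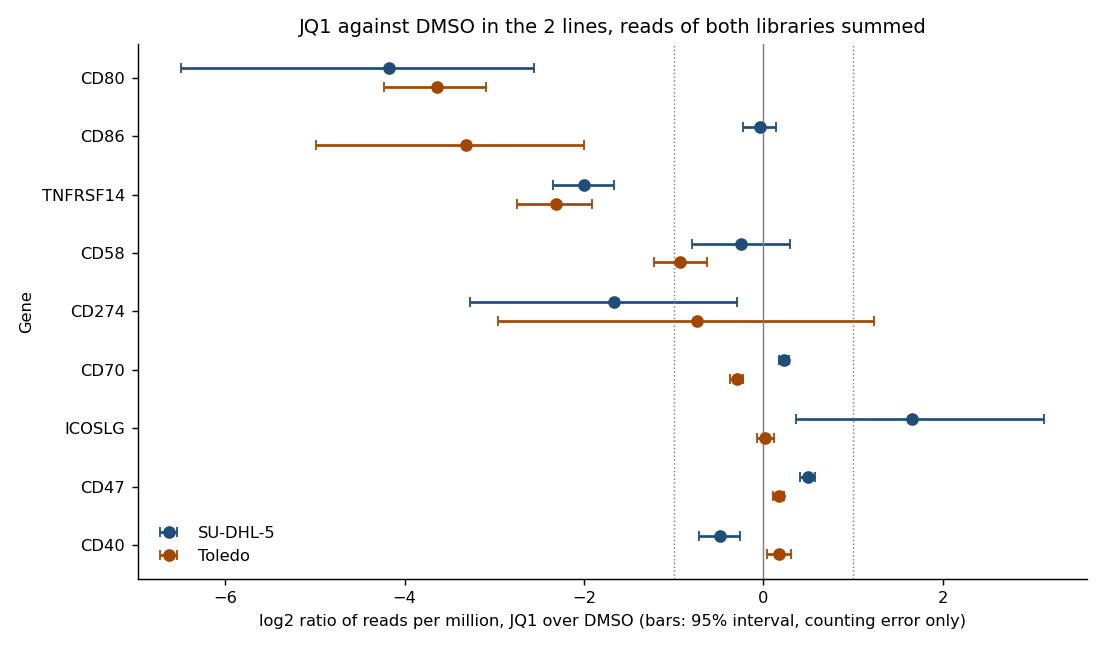
Log2 ratio of reads, scaled to the mapped reads, JQ1 over DMSO, of the 9 ligand genes with reads, in SU-DHL-5 (blue) and Toledo (brown); bars are 95% intervals that cover counting error only, dotted lines mark a 2-fold change, and PDCD1LG2 had no reads. CD80 and TNFRSF14 lie left of the dotted line at −1 in both lines, and CD86 lies there in Toledo alone. With few reads, CD274 (−1.67) lies left of −1 and ICOSLG (1.66) right of 1 in SU-DHL-5.

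CD80 had the lowest ratio of the measured genes of the group in both lines. In SU-DHL-5 its DMSO libraries were at 0.601 and 0.662 RPKM and its JQ1 libraries at 0.0220 and 0.0496 RPKM. The log2 ratio was −2.43, and the reads of both libraries numbered 57 in DMSO and 3 in JQ1, a log2 ratio of reads of −4.18 (interval −6.50 to −2.56). Toledo had 4.02 and 4.04 RPKM in DMSO and 0.379 and 0.270 RPKM in JQ1. The log2 ratio was −3.28, with 377 reads in DMSO and 29 in JQ1 (log2 ratio of reads −3.63, interval −4.23 to −3.09). The JQ1 libraries lay below the DMSO libraries in each line, and 0.912% of all measured genes had a log2 ratio as low or lower in SU-DHL-5, as had 0.379% in Toledo. CD80 was listed with 1 transcript. The gene of the table that overlaps it, by 780 bases, was at 0 in every library. In the GENCODE 29 annotation TIMMDC1 overlaps CD80 on the opposite strand, and whether the counting used strand is not given in the sources used here.

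TNFRSF14 (chr1:2556366-2563829), a member of the TNF receptor superfamily that is both receptor and ligand, was also at least 2-fold lower in both lines. In SU-DHL-5 it had 3.62 and 3.53 RPKM in DMSO and 0.991 and 0.781 RPKM in JQ1, a log2 ratio of −1.90 over 378 and 90 reads. In Toledo it had 3.16 and 2.41 RPKM in DMSO and 0.436 and 0.689 RPKM in JQ1, a log2 ratio of −2.12 over 308 and 59 reads. The groups did not overlap in either line, and the intervals of the ratio of reads, −2.35 to −1.66 and −2.75 to −1.91, overlapped each other, so a difference between the lines was not detectable at this depth. Of its 4 transcripts, TNFRSF14_1 held 66.1% to 84.0% of the summed RPKM of the gene in each sample, and its log2 ratios were −1.85 and −2.27. The second in level, TNFRSF14_3, had −1.98 and −2.02, but in Toledo with JQ1 it held 53.1% in the first library, beside 46.9% for TNFRSF14_1, and was at 0 in the second. An antisense gene also overlaps TNFRSF14 in GENCODE 29, with the same limit on strand.

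CD86 differed little with JQ1 in SU-DHL-5 and was much lower with JQ1 in Toledo. In SU-DHL-5 it had 5.32 and 5.21 RPKM in DMSO and 5.14 and 5.08 RPKM in JQ1, a log2 ratio of −0.04 (517 and 478 reads, interval of the ratio of reads −0.22 to 0.14). In Toledo it had 0.546 and 0.471 RPKM in DMSO and 0.0614 and 0.0412 RPKM in JQ1, a log2 ratio of −2.01. The reads there numbered 52 and 5 (log2 ratio of reads −3.31, interval −4.99 to −2.0), and the intervals of the 2 lines did not overlap. These intervals do not cover the spread between libraries or cultures.

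By the transcript values, the level of CD86 in SU-DHL-5 had different shares of its transcripts in DMSO and in JQ1. The table lists 6 transcripts, 3 from an upstream start and 3 from starts 22406 to 22487 bases downstream, whose promoter windows are printed above (the RefSeq start of the downstream window lies between the downstream starts of the table). Those from the upstream start had 1.66 and 2.59 RPKM in DMSO and 4.72 and 4.07 RPKM in JQ1, a log2 ratio of 1.02. Those from the downstream starts had 4.13 and 3.12 RPKM in DMSO and 0.937 and 1.48 RPKM in JQ1, a log2 ratio of −1.51. In both cases the JQ1 libraries did not overlap the DMSO libraries. The share of CD86 reads given to the upstream start was 36.8% in DMSO (exact binomial interval 32.6% to 41.1%, and 28.3% and 44.7% in the 2 libraries) and 78.2% in JQ1 (74.3% to 81.9%, and 83.1% and 72.6%). In Toledo, 45 of 52 reads in DMSO and 5 of 5 in JQ1 were given to the upstream start. The upstream window has 37% G and C over its 300 bases and the downstream window 51.3%, beside a median of 58.7% over all promoters. The transcripts of the 2 starts share most of their exons, so that only part of the reads tells them apart, and how reads were given to transcripts is not given in the sources used here.

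**Figure D3:**
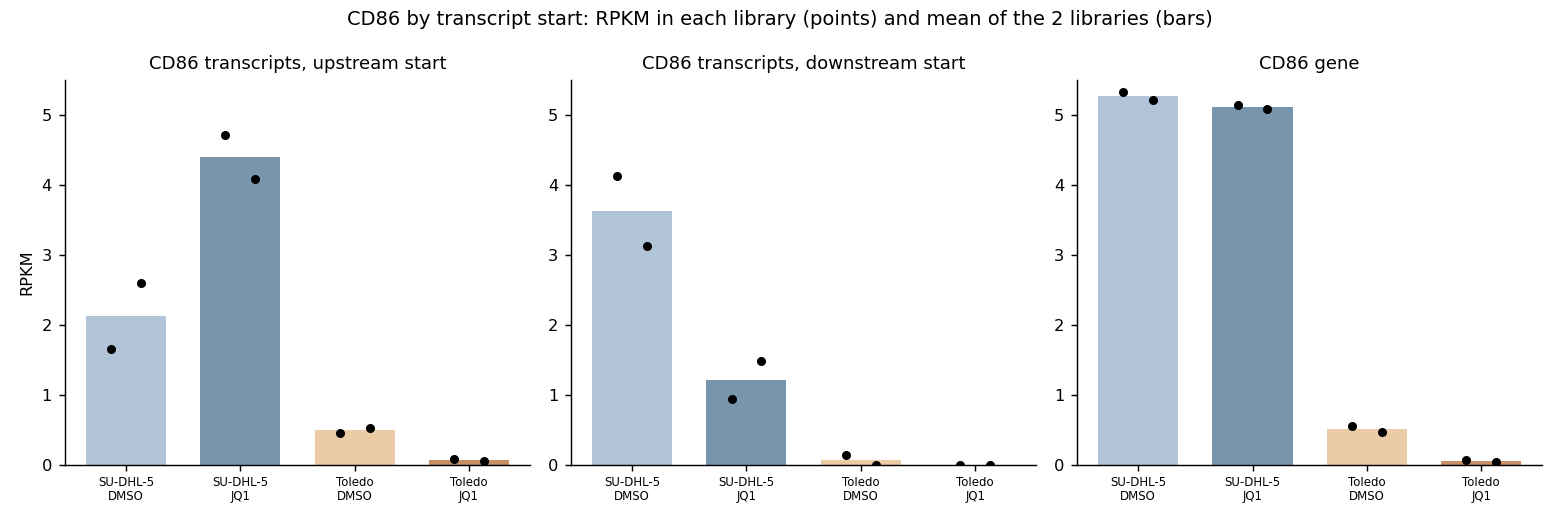
RPKM of CD86 transcripts from the upstream start, from the downstream starts and of the gene, in the 4 samples on 1 linear scale; points are the 2 libraries and bars their mean. In SU-DHL-5 the upstream transcripts were higher and the downstream transcripts lower in JQ1 than in DMSO, while the gene stayed between 5.08 and 5.32 RPKM.

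CD58, the ligand of CD2 on T cells and natural killer cells, was lower with JQ1 in Toledo. There it (chr1:116514534-116571093) had 4.64 and 5.63 RPKM in DMSO and 2.59 and 2.80 RPKM in JQ1, a log2 ratio of −0.91 over 292 and 147 reads (interval of the ratio of reads −1.22 to −0.63). In SU-DHL-5 it had 1.55 and 0.874 RPKM in DMSO and 0.828 and 1.22 RPKM in JQ1, where the libraries overlapped. The log2 ratio of −0.22 in SU-DHL-5 had an interval of −0.80 to 0.30 over 66 and 53 reads, and it took the other sign in the second libraries alone (0.44). A difference of CD58 in SU-DHL-5 was therefore not detectable at this depth. The 2 genes of the table that overlap CD58 were at 0 in every library.

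CD47 was somewhat higher with JQ1, and in both lines the JQ1 libraries lay above those with DMSO. In SU-DHL-5 it (chr3:108043094-108091088) had 11.8 and 11.9 RPKM in DMSO and 16.3 and 17.1 RPKM in JQ1, a log2 ratio of 0.49. Toledo had 21.4 and 24.7 RPKM in DMSO and 26.8 and 24.8 RPKM in JQ1, a log2 ratio of 0.16. The gap in Toledo was narrow, since the higher DMSO library and the lower JQ1 library were at 24.7 and 24.8 RPKM, and in the second libraries alone this ratio was 0.01. Among the 4 transcripts of CD47, CD47_1 had 6.30 and 6.83 RPKM in DMSO and 12.2 and 12.5 RPKM in JQ1 in SU-DHL-5 and 11.4 and 11.9, then 18.1 and 16.2 RPKM in Toledo, log2 ratios of 0.90 and 0.55. CD47_3, the second in level in Toledo, had 6.38 and 8.88 RPKM in DMSO and 4.93 and 4.07 RPKM in JQ1 there, a log2 ratio of −0.75, and in SU-DHL-5 its ratio was 0.18. CD47_1 thus held 54.3% of the summed RPKM of the gene in DMSO and 72.4% in JQ1 in SU-DHL-5, while its shares in Toledo were 49.1% and 65.1%.

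CD40 and CD70, the receptor of the T-cell molecule CD40LG and the ligand of CD27, had small ratios of opposite direction in the 2 lines. In SU-DHL-5, CD40 (chr20:46118260-46129745) had 7.60 and 6.86 RPKM in DMSO and 4.96 and 5.39 RPKM in JQ1, a log2 ratio of −0.47 over 395 and 269 reads (interval of the ratio of reads −0.71 to −0.26). In Toledo it had 16.6 and 14.8 RPKM in DMSO and 17.4 and 18.2 RPKM in JQ1, a log2 ratio of 0.18 over 896 and 965 reads (interval 0.04 to 0.31). The 2 DMSO libraries of Toledo differed by −0.17 on the log2 scale (second over first), which this interval does not cover. In SU-DHL-5, CD70 (chr19:6585839-6591152, listed with 1 transcript) had 142 and 158 RPKM in DMSO and 174 and 178 RPKM in JQ1, a log2 ratio of 0.23. Toledo had 104 and 101 RPKM in DMSO and 86.3 and 80.4 RPKM in JQ1, a log2 ratio of −0.30. For both genes the JQ1 libraries lay on 1 side of the DMSO libraries in SU-DHL-5 and on the other side in Toledo, and the difference between the lines was not tested. At the transcript level, CD40_5 held 61.3% to 75.2% of the summed RPKM of CD40 in each sample. In the JQ1 sample of SU-DHL-5, however, CD40_3 varied between 2.92 and 0.572 RPKM, and in the first library it held 53.0% beside 43.0% for CD40_5, so the split among the 6 transcripts of CD40 varied widely between libraries of 1 sample.

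ICOSLG, the ligand of ICOS on T cells, was found mainly in Toledo. It (chr21:44222991-44241004) had 0 and 0.10 RPKM in DMSO and 0.118 and 0.217 RPKM in JQ1 in SU-DHL-5, over 7 and 21 reads. Toledo had 12.9 and 13.2 RPKM in DMSO and 13.8 and 12.6 RPKM in JQ1, over 1812 and 1757 reads. The log2 ratio with JQ1 in Toledo was 0.02 (interval of the ratio of reads −0.07 to 0.12), and the libraries overlapped. The transcript ICOSLG_4 held 76.3% of the summed RPKM in DMSO and 77.4% in JQ1 in Toledo, and it was at 0 in every library of SU-DHL-5. These values are uncertain, because a near-identical copy on the same chromosome, listed as LOC102723996 (chr21:5022499-5036782), can share reads with ICOSLG. Of the 50-base stretches in the transcripts that GENCODE 29 places at this copy, 93.2% also occur in transcripts of ICOSLG. In the other direction, 33.7% of the stretches in transcripts of ICOSLG occur at the copy by the same annotation.

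The copy had 3.03 and 2.97 RPKM in DMSO and 1.91 and 1.69 RPKM in JQ1 in SU-DHL-5, and 0.269 and 0.739, then 0.584 and 0.154 RPKM in Toledo. With both rows added, the log2 ratio between the untreated lines was 2.11 in place of 6.45 for ICOSLG alone. The ratio with JQ1 in SU-DHL-5 was −0.61 in place of 0.83, the opposite direction, and in Toledo it was 0.01. The level of ICOSLG above SU-DHL-5 in Toledo thus remained with the rows added, and the direction with JQ1 in SU-DHL-5 did not.

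**Figure D4:**
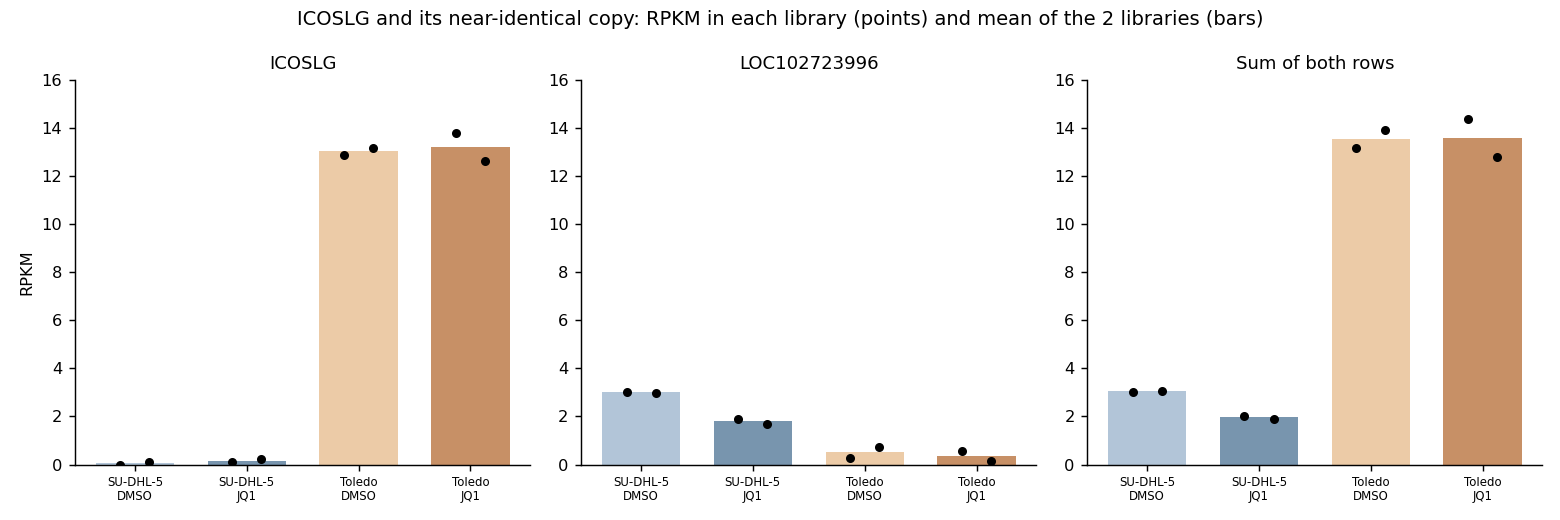
RPKM of ICOSLG, of its near-identical copy LOC102723996 and of their sum in the 4 samples on 1 linear scale; points are the 2 libraries and bars their mean. Most of the sum lay on ICOSLG in Toledo and on the copy in SU-DHL-5, and the sum was 13.5 RPKM in Toledo and 3.05 RPKM in SU-DHL-5 with DMSO.

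CD274 (chr9:5450399-5470567) was close to the limit of detection. It had 0.202 and 0.124 RPKM in DMSO and 0.0320 and 0.0722 RPKM in JQ1 in SU-DHL-5, and 0.0298 and 0.0812, then 0.0649 and 0 RPKM in Toledo. The reads numbered 20 and 6 in SU-DHL-5 (log2 ratio of reads −1.67, interval −3.27 to −0.30) and 7 and 4 in Toledo (interval −2.96 to 1.23). The libraries did not overlap in SU-DHL-5 and overlapped in Toledo, where a difference was not detectable at this depth. On the log2 scale over the 4 sample means, the genes of at least 1 RPKM whose pattern was nearest to that of CD274 were CD37, RPIA and DYRK4, which differed from it by at most 0.08, 0.09 and 0.09, respectively, among 9521 genes compared. This likeness depends on the 0.1 RPKM added to each value, which brings the ratios of CD274 close to 0, and the pattern of CD274 itself rests on 4 to 20 reads in each sample.

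**Figure D5:**
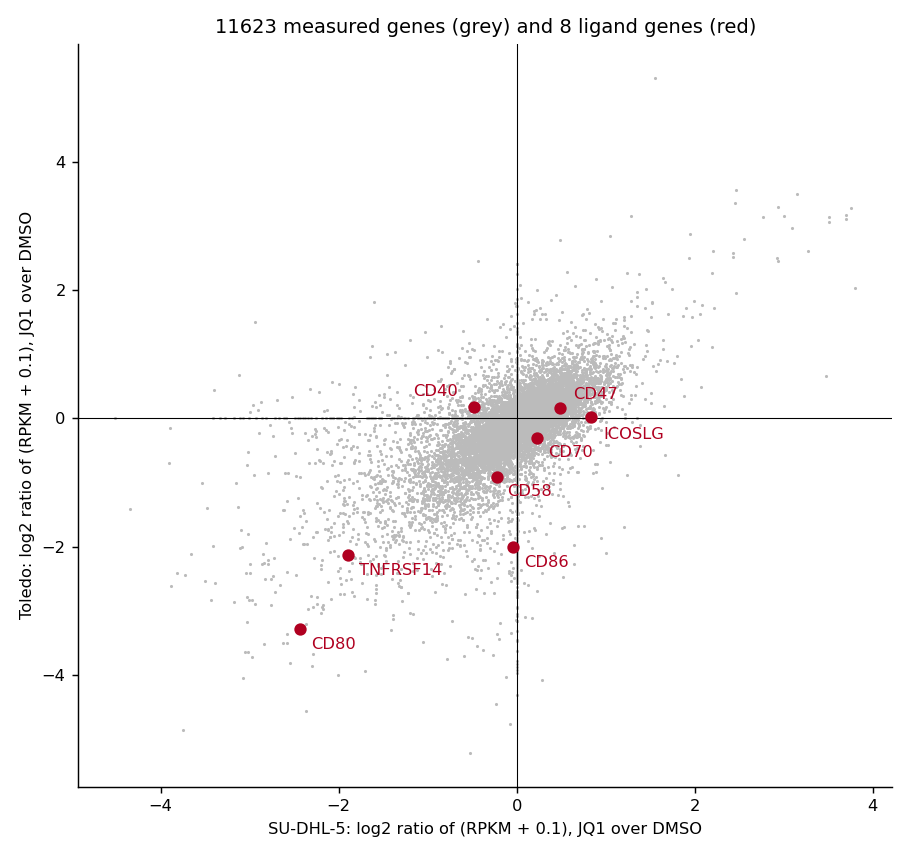
Log2 ratio of (RPKM + 0.1), JQ1 over DMSO, in SU-DHL-5 (horizontal) and Toledo (vertical) for the 11623 measured genes (grey) and the 8 measured ligand genes (red); grey points on the axes include genes at 0 in 1 line. CD80 and TNFRSF14 lie at the lower left, CD86 lies below the centre (−0.04 and −2.01), and CD40 and CD70 lie in the quadrants of opposite direction.

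Without a 2-fold minimum, the pair of JQ1 libraries of SU-DHL-5 lay above the pair with DMSO for CD70, ICOSLG and CD47, 3 of the 8 measured genes (36.9% of all measured genes), and below for CD40, CD80, CD86 and TNFRSF14, 4 of the 8 (37.5%). In Toledo they lay above for CD40 and CD47, 2 of the 8 (27.3%), and below for CD80, CD86, CD70, TNFRSF14 and CD58, 5 of the 8 (43.6%). ICOSLG, measured through its level in Toledo, had only 7 reads in DMSO and 21 in JQ1 in SU-DHL-5. With its copy added, its log2 ratio there was −0.61, the opposite direction. The order of levels with JQ1 was still led by CD70, CD47 and CD40. In SU-DHL-5 it went on with CD86, CD58, TNFRSF14, ICOSLG, CD274 and CD80, where the libraries of CD40 and CD86, of CD58 and TNFRSF14, and of CD274 and CD80 overlapped. In Toledo it went on with ICOSLG, CD58, TNFRSF14, CD80, CD86 and CD274, where the libraries of the last 2 overlapped.

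Among 21 other costimulation and checkpoint ligands, most of them of the B7, TNF, nectin and SLAM families, 13 were measured. None was at least 2-fold higher with JQ1 in either line. In SU-DHL-5, 5 were at least 2-fold lower with a median log2 ratio of −0.49 over the list, and in Toledo 4 were, with a median of −0.27. CD48, the ligand of CD244 on natural killer cells, had 7.32 and 9.79 RPKM in DMSO and 1.92 and 1.96 RPKM in JQ1 in SU-DHL-5, and 59.1 and 58.7, then 18.2 and 16.4 RPKM in Toledo, log2 ratios of −2.09 and −1.76. LGALS9 (galectin-9) had 20.1 and 20.8 RPKM in DMSO and 5.02 and 5.90 RPKM in JQ1 in Toledo, a log2 ratio of −1.89, and at most 0.0722 RPKM in SU-DHL-5. The log2 ratios of CD24 were −1.06 and −0.27 and those of SLAMF6 −1.01 and −0.74.

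Of 13 receptors and binding partners of the 10 molecules, 4 were measured in these B-cell lines. With JQ1, 2 of the 4 were at least 2-fold lower in SU-DHL-5, beside 7.51% of all measured genes. In Toledo 2 were also, beside 9.94%. The 2 were not the same genes: LTA was lower in both lines and CD27 in SU-DHL-5 alone. The other gene in Toledo had a mean below 1 RPKM and is not named. In SU-DHL-5, CD27, the receptor of CD70, had 173 and 161 RPKM in DMSO and 19.7 and 18.6 RPKM in JQ1, a log2 ratio of −3.12, while CD70 itself had the ratio of 0.23 given above. In Toledo, CD27 had at most 0.0939 RPKM. LTA (lymphotoxin alpha), a ligand of TNFRSF14, had 4.56 and 4.33 RPKM in DMSO and 0.604 and 0.298 RPKM in JQ1 in SU-DHL-5, and 3.91 and 4.45, then 0.689 and 0.733 RPKM in Toledo, log2 ratios of −3.04 and −2.40. RGMB, a binding partner of PDCD1LG2, was close to 0 in SU-DHL-5. It had 0.0573 and 0.0424 RPKM in DMSO and 0.131 and 0.148 RPKM in JQ1 there, a log2 ratio of 0.68. Toledo had 3.35 and 3.29 RPKM in DMSO and 4.71 and 4.22 RPKM in JQ1, a log2 ratio of 0.41. Among the 8 T cell markers, CD247 had 11.7 and 11.8 RPKM in DMSO and 4.98 and 4.84 RPKM in JQ1 in SU-DHL-5. This was most of the summed level of the 8 markers there (12.9 RPKM in both DMSO libraries, 4.89 to 5.13 in JQ1). CD3E was next in SU-DHL-5, with 1.09 and 0.934 RPKM in DMSO and 0.120 and 0.0452 RPKM in JQ1. In Toledo the sum was 0.227 to 0.452 RPKM in DMSO and 0.0366 to 0.0369 RPKM in JQ1. CD5 was at 0 in every library. The 8 myeloid and dendritic cell markers summed to at most 1.33 RPKM, with MPO, CD163, FCGR3A and CLEC9A at 0, and the 6 NK cell markers to at most 1.07 RPKM, with NCR1 at 0.

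Of 19 genes of CD40 signalling and its targets, 16 were measured. In SU-DHL-5, 2 of the 16 were at least 2-fold lower with JQ1, beside 7.51% of all measured genes. They were BCL2A1, an anti-apoptotic BCL2 relative, with a log2 ratio of −1.58, and TRAF1, an adaptor of TNF receptors, with −1.19. In Toledo 1 of the 16 was, beside 9.94% (FAS, a death receptor, with −1.29). Both counts are near these shares. SU-DHL-5 had a median log2 ratio of −0.15 and Toledo of −0.10. All 13 genes that regulate CD274 (the interferon gamma receptor, JAK, STAT and IRF genes, CMTM4, CMTM6 and SOCS1) were measured, and none was 2-fold higher or lower. Their median log2 ratio was 0.26 and 0.42, beside 0 and −0.09 over all measured genes. The JQ1 libraries lay above those with DMSO for 7 of them in SU-DHL-5 (36.9% of all measured genes) and below for 5 (37.5%). In Toledo they lay above for 10 (27.3%) and below for 1 (43.6%). CMTM6, which keeps the PD-L1 protein at the cell surface, had 26.3 and 26.2 RPKM in DMSO and 47.1 and 46.2 RPKM in JQ1 in SU-DHL-5, and 36.9 and 43.9, then 61.2 and 57.0 RPKM in Toledo. Of 20 neighbours of CD274 and PDCD1LG2 on 9p24, 14 were measured, and none was 2-fold higher or lower with JQ1, beside the same shares of all measured genes. The median of the 14 was 0.28 and 0.30, beside 0 and −0.09 over all measured genes. Between the untreated lines, none of these 14 neighbours was at least 2-fold higher in Toledo, beside 18.9% of all measured genes. Only 1 (VLDLR) was at least 2-fold lower, beside 14.9%. Without a 2-fold minimum, both Toledo libraries lay below those of SU-DHL-5 for 11 of the 14 and above for 1. Among the 11623 measured genes they lay below for 4732 and above for 5078. The median log2 ratio of the 14 was −0.38, beside 0.03 over all measured genes. The cause was not tested.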

How the data were processed

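The values deposited by the authors are RPKM of genes and of transcripts in 8 libraries, made from paired reads of libraries made with a stranded mRNA kit. The submitters' processing notes name CASAVA 2.0 and the build GRCh38 (hg38). The aligner, the counting and the annotation are not given in the sources used here. The titles of the treated samples spell the agent JO1 and their treatment labels JQ1. The 2 libraries of a sample were averaged. Mapped reads were recovered as the totals that made single-exon genes come out at whole reads, and were refined with other genes of fitted length. The length of each gene was then fitted as the smallest, from 100 to 40000 bases, that made its reads whole (tolerance 0.02 reads). Such a length was found for 14942 of the 14944 genes above 0, with 94.8% to 95.5% of mapped reads on genes. Since lengths were fitted, and few values are easily made whole, this count is not a check of the totals. No count model was fitted, since each condition had 1 sample. Genes with a mean of at least 0.1 RPKM were measured, and ratios used a pseudocount of 0.1 RPKM. Starts in the files are counted from 0 and are given here from 1.

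The 10 genes and the 9 other lists were chosen with earlier results of these data known. All 10 genes are named. Of each pathway list, at most the 4 genes with the largest log2 ratio in size in either line and a mean of at least 1 RPKM are named, and VLDLR was also named for its count. In 2 of the lists, 1 gene each is not reported here and is left out of counts, sums and medians. Marker genes were named after their values were seen. Scripts were checked on simulated data. Tools were Python 3.11.15 with matplotlib 3.10.9, scipy 1.17.1, pandas 2.3.3 and numpy 2.4.6.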

Additional observations from a re-analysis of the deposited data

Results flagged for a closer look

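CD40 and CD70 were higher with JQ1 in both libraries of 1 line and lower in both libraries of the other. The log2 ratio of CD40 in Toledo minus that in SU-DHL-5 was 0.65, and that of CD70 was −0.53. The differences were not tested, since each condition had 1 sample. Such opposite directions were found for 772 of the 11623 measured genes, or 6.64%. For both genes the 2 libraries of a DMSO sample differed by up to 0.17 on the log2 scale.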

How the results depend on the processing

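Alternatives were another pseudocount, scaling by the median ratio, 1 library alone, summed transcript values and other filters on low values, and, added after seeing the data, centring on gene length and adding its copy to ICOSLG. No paired analysis was possible because the 2 groups of a comparison share 1 replicate number. A fit of JQ1 over both lines with the line as a term was not run. With JQ1 in SU-DHL-5, 1 gene in place of 0 (ICOSLG) was at least 2-fold higher with a pseudocount of 0.01 RPKM and in library 1 alone, and 1 in place of 2 was at least 2-fold lower with a pseudocount of 1 RPKM, where CD80 had −0.66. In Toledo the median, −0.60, was −0.41 with a pseudocount of 1 RPKM, −0.26 with no filter on low values and −0.48 centred on gene length. Between the untreated lines the median, 1.03, was 0.96 with a pseudocount of 1 RPKM and 0.48 with no filter. With no filter the ratios were the same, and the median also took in CD274 and PDCD1LG2, the genes below the minimum. The cause of the other shifts was not tested. A pseudocount of 1 RPKM also moved CD86 in Toledo to −0.52. Of 192 ratios of single genes under alternatives, 165 moved by no more than the distance from the middle to the end of their counting interval, 27 moved further and none of the 2-fold ones changed sign. Depth limits CD274, ICOSLG in SU-DHL-5, CD80 with JQ1 in both lines and CD86 with JQ1 in Toledo. The second DMSO library of Toledo was higher than the first for longer genes (Spearman's rho 0.61 across genes, which are not independent replicates).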
